A study of Mus musculus with 6 samples.

Results

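The genes described here encode the proteins of the mitochondrial ribosome. They are the 78 genes, among 22027 protein-coding genes of the deposited table, whose symbol is Mrpl or Mrps followed by a number. By symbol 49 of them (Mrpl) belong to the large subunit and 29 (Mrps) to the small subunit, and the choice used no measured value. RNA was measured in 6 libraries of RAW 264.7, a mouse macrophage cell line labelled as wild type, 48 h after lipofection of 10 pmol of siRNA per well. By their titles 3 libraries (siCTL) received a non-targeting siRNA and 3 (siTET3) received a single siRNA against Tet3, which encodes an oxidase of methylated cytosine in DNA. All 6 therefore share the transfection, no untransfected cells are analysed here, and the treatment field of every sample reads siTET3, so the grouping depends on titles. The labels do not say whether replicates were separate cultures, and p-values therefore reflect how much these libraries vary, which can be technical variation alone.

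The mitochondrial ribosome translates the few proteins that the mitochondrial genome encodes, all of them subunits of the respiratory chain and of ATP synthase. Its own proteins are encoded in the nucleus, made in the cytosol and imported, and they are assembled on ribosomal RNAs transcribed inside the organelle. Part of them descend from bacterial ribosomal proteins and part are found only in mitochondria, where they surround a shortened RNA core. The small subunit holds the decoding site for the mRNA, and the large subunit forms peptide bonds and carries the exit tunnel for the new protein.

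No mitochondrial ribosomal protein gene differed between the groups past the threshold, and the 78 genes kept nearly the same order of levels in both. All 78 had a mean of at least 10 normalised reads, the level required for testing. Values are read counts that the authors scaled by 1 size factor per library, called normalised reads here, and log2 changes are of siTET3 over siCTL on the log2(value + 1) scale. A test by limma across 11591 genes, with a call at a Benjamini-Hochberg adjusted p under 0.05, called 0 of 49 Mrpl and 0 of 29 Mrps genes, against 0.354% of all genes tested. At an unadjusted p under 0.05, limma gave 3 of the 78, all of them Mrpl genes, against 13.2% of all genes. On the reads recovered from the deposited values, edgeR and DESeq2 also called 0 of the 78, against 0.345% and 3.84% of all genes, with 6 and 10 genes at an unadjusted p under 0.05 (13.3% and 17.4% of all genes). The authors' deposited table likewise lists no member with an adjusted p under 0.05, against 2.94% of its genes, and 10 with an unadjusted p under 0.05, against 16.1%.

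Read totals per library ran from 29587171 to 61709131. No decrease of Tet3 itself could be detected in the siTET3 samples. It had 2171, 1911 and 2027 normalised reads in siCTL and 1939, 1980 and 1950 in siTET3, so the groups overlapped, and the siTET3 mean was 96.1% of the control mean. The log2 change was -0.06 (95% interval -0.26 to 0.15, limma adjusted p = 0.699), and an exact two-sided permutation test gave p = 0.4, where 0.1 is the smallest p that 3 against 3 allows. For that reason the samples are named by their label, siTET3, and each direction is one between labels. Macrophage markers summed to between 479931 and 567315 normalised reads, of which Lyz2 alone gave 332088 to 418499. Of the 10 listed genes, 9 were found in every library, and Mertk was at 0 in siTET3 replicate 3 and at 6.11 to 34.2 elsewhere. A further entry named Itgam, at 0 in siCTL replicate 2 and at 94.0 to 646 elsewhere, is part of the macrophage sums. Of the T cell markers, 3 of 4 were at 0 in every library and the summed level reached 1.27, while all 4 epithelial markers were at 0 and the 4 B cell markers summed to between 0 and 9.17.

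Replicate 2 of siCTL stood apart from the other 5 libraries. Its median chi-square per gene against siCTL replicates 1 and 3 was 30.1 and 26.4, while replicates 1 and 3 gave 4.68 against each other and the pairs of siTET3 libraries between 1.54 and 2.24. Over 4 equal classes of genes from the lowest to the highest GC content, its median log2 deviation ran from -0.45 over -0.08 and 0.10 to 0.27. Fibroblast markers summed to 253 normalised reads in it, of which Col3a1 gave 144 and Pdgfra 109, against 5.10 to 8.91 in the other libraries. The other listed fibroblast markers were not raised in it, with Col1a1 at 0 in every library and Dcn at 0 in it and 0 to 6.37 elsewhere. Neutrophil markers summed to 2.53 in it, all of it Mpo, against 40.5 to 62.1 elsewhere. S100a8 was at 0 in it and at 40.5 to 62.1 elsewhere, while Ly6g and S100a9 were at 0 in every library. The part of these differences in the results below was not tested, and values without that library are given beside those with it.

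Levels of the members spanned a 25.5-fold range once divided by annotated exon length. Per kilobase of exon, Mrpl52, a mitochondria-specific large subunit protein, was highest at 5220 normalised reads and Mrpl12 came next at 4149. Mrpl24 (2506), Mrpl41 (2338), Mrpl27 (2300), Mrpl18 (2296) and Mrps21 (2190) followed, and from Mrpl52 down to Mrps21 each gene's range over the 6 libraries overlapped that of its neighbour. The lowest per kilobase were Mrpl48 (205), Mrps35 (230) and Mrpl1 (250). The median was 928 per kilobase for Mrpl and 750 for Mrps, against 269 over all genes tested. Exon length here is the union over all annotated transcripts, which lowers the value of genes with long annotated variants. Across the 78 genes, the siCTL and siTET3 means per kilobase had a correlation of 0.979 on the log2 scale (Spearman's rho 0.976), a description across genes, which are not replicates.

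**Figure D1:**
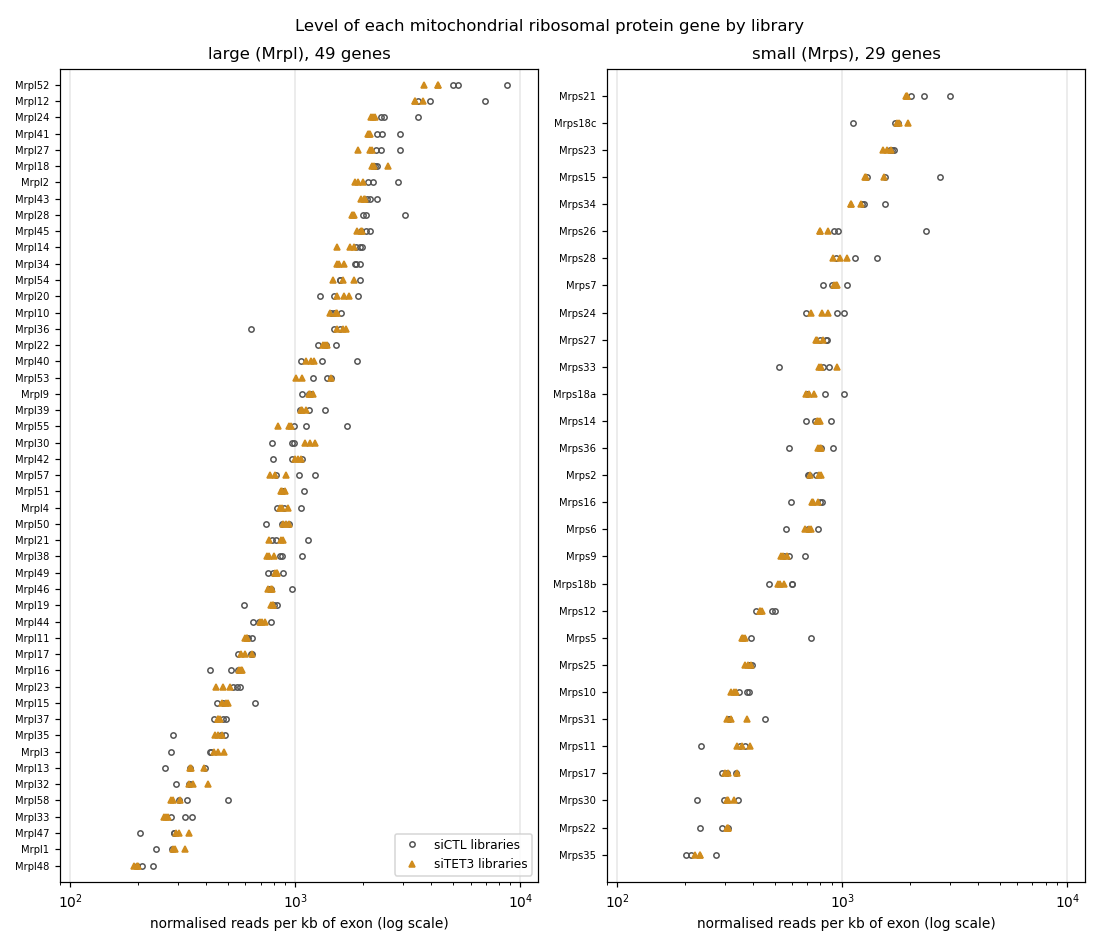
Level of each of the 49 Mrpl and 29 Mrps genes in normalised reads per kilobase of exon (log axis), one row per gene and one symbol per library, with open circles for siCTL and triangles for siTET3. The genes run from Mrpl48 (mean 205) to Mrpl52 (mean 5220), and for most genes the symbols of both groups lie side by side except for a single outlying siCTL circle.

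Summed over the 78 genes, the libraries labelled siCTL held 183036, 204511 and 180834 normalised reads and those labelled siTET3 held 177071, 172542 and 174256. Replicate 2 of siCTL was the highest and the siTET3 sums were all below the siCTL sums, with that library or without it. As a share of all reads in the library, the same genes took 0.472% ± 0.0093 in siCTL and 0.461% ± 0.0051 in siTET3 (SD, n = 3 each), with overlapping groups. The Mrpl genes took 0.322% ± 0.0064 and 0.318% ± 0.0047, and the Mrps genes 0.149% ± 0.0055 and 0.144% ± 0.0013. In bulk RNA, a lower level per cell and fewer cells with that level cannot be told apart.

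Promoter sequences were matched for 69 of the 78 genes, as windows of 250 bases before to 50 bases after the start of transcription (RefSeq, GRCm38.p6). Short motifs of factors long associated with nuclear genes of mitochondrial proteins were counted on both strands, and matches may overlap. These were GCATGCGC for NRF1, CCGGAAG for GABPA and other ETS factors, and AAGATGGC for YY1. The NRF1 letters were in the windows of 8 of the 69 genes (11.6%), against 6.33% of tested genes with a window and 3.05% of all 27025 genes with one. The ETS letters were in 26 (37.7%, against 21.2% and 9.93%) and the YY1 letters in 12 (17.4%, against 5.64% and 3.19%). At least 1 of the 3 was found for 38 genes (55.1%, against 30.02% and 14.9%). NRF1 letters were seen for 7 of 43 Mrpl and 1 of 26 Mrps genes, and ETS letters for 15 and 11. A match describes letters only, and no binding was measured here.

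Stretches from 120 bases before to 30 bases after the start are shown for 6 genes as examples of windows with different motifs or none, each 5′ to 3′ on the gene's own strand with motif matches in capitals. They are Mrpl52 (chr14:54426789-54426938 on the plus strand), Mrpl34 (chr8:71464806-71464955 on the plus strand), Mrpl30 (chr1:37890357-37890506 on the plus strand), Mrpl32 (chr13:14613008-14613157 on the minus strand), Mrps26 (chr2:130563637-130563786 on the plus strand) and Mrps18a (chr17:46110884-46111033 on the plus strand). CTTCCGG is the ETS motif read on the opposite strand. The start is that of RefSeq, and for Mrpl34, Mrpl32 and Mrps26 it differs from the gene start given below, which is from GENCODE. The Mrpl34 stretch ends before its GENCODE start, and the Mrpl32 stretch lies wholly after its GENCODE start. Positions of motifs hold for the RefSeq start only.
Mrpl52: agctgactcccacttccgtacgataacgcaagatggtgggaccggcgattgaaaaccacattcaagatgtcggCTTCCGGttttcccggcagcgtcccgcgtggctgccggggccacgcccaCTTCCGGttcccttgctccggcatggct
Mrpl34: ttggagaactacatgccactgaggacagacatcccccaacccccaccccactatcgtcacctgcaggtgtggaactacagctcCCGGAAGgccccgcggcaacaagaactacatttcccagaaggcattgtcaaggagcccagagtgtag
Mrpl30: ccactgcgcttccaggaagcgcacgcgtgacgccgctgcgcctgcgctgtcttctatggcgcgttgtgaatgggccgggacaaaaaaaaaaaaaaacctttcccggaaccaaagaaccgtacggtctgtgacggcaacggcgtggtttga
Mrpl32: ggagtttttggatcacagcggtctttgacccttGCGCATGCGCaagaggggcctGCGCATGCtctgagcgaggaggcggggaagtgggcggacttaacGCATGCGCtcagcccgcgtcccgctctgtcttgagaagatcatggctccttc
Mrps26: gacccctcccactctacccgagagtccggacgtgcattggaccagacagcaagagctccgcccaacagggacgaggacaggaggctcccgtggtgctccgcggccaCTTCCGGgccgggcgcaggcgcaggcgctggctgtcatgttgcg
Mrps18a: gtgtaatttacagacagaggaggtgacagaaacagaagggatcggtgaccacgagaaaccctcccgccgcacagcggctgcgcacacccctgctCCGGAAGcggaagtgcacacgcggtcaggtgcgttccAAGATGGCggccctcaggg
Mrpl52 carried the ETS letters on the opposite strand at positions -47 and 3 from the start, Mrpl34 carried them once at -37 and Mrps26 once, reversed, at -14. Mrpl32 held 4 NRF1 matches, a pair of which overlap on opposite strands, and Mrps18a held both ETS and YY1 letters. Mrpl30 held none of the motifs in this stretch. Members with the ETS letters had a median log2 change of -0.11 and those without -0.01, and the medians were 0.02 and -0.09 for YY1 and -0.02 and -0.08 for NRF1. Leaving out siCTL replicate 2, these medians were -0.10 and -0.04 for ETS, -0.04 and -0.05 for YY1 and -0.03 and -0.05 for NRF1. With the GC trend described below also removed, the ETS medians were -0.11 and -0.02 and the YY1 medians -0.0082 and -0.07. The NRF1 order turned in that fit, to -0.05 with the letters and -0.04 without. These medians are a description with no test, and those without siCTL replicate 2 alone were added after the values had been seen.

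Among the large subunit genes, 32 of 49 (65.3%) had a negative and 17 a positive log2 change, against 50.7% negative over all genes tested. The Mrpl median was -0.08, against -0.0049 over all genes. Without siCTL replicate 2 the median was -0.04, against 0.008 over all genes, and 33 (67.3%) were negative, against 48.2% of all genes. Scaling to library totals alone turned the Mrpl median to 0.0029 and moved that of all genes to 0.08, so no direction is drawn for the subunit. In both scalings the Mrpl median lay below that of all genes, a difference that was not tested. The 3 genes with the smallest p were Mrpl34, Mrpl30 and Mrpl52.

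Mrpl34, the counterpart of a small basic protein of the bacterial large subunit (ENSMUSG00000034880.7, chromosome 8, 71464959 to 71465747, plus strand, GRCm38), had 1176, 1120 and 1129 normalised reads in siCTL and 1002, 952 and 928 in the libraries labelled siTET3. Every siTET3 library was below every siCTL library, and siCTL replicate 2 was close to the other controls. The log2 change was -0.25 (SE 0.08, 95% interval -0.45 to -0.05), which did not pass in limma (adjusted p = 0.333), nor in DESeq2 (adjusted p = 0.0860) or without siCTL replicate 2 (log2 change -0.26, limma adjusted p = 0.102). With the GC trend described below removed it was -0.03 (adjusted p = 0.889), and -0.13 with siCTL replicate 2 also left out (adjusted p = 0.363).

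Mrpl30 (ENSMUSG00000026087.11, chromosome 1, 37890477 to 37898535, plus strand), the counterpart of bacterial L30, was the member with the smallest p among those on the higher side. It had 3131, 2537 and 3172 normalised reads in siCTL and 3559, 3727 and 3952 in siTET3, without overlap. The log2 change was 0.35 (95% interval 0.07 to 0.63, limma adjusted p = 0.335), and 0.25 without siCTL replicate 2 (adjusted p = 0.0896), so it did not pass either way. With the GC trend removed it was 0.17, and 0.16 with siCTL replicate 2 also left out.

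Mrpl52 (ENSMUSG00000010406.11, chromosome 14, 54426909 to 54429756, plus strand) had the most negative log2 change of the subunit. Its normalised reads were 5586, 9612 and 5838 in siCTL and 4788, 4151 and 4762 in siTET3. The groups did not overlap, and siCTL replicate 2 lay far above the other 5 libraries. The log2 change of -0.58 (95% interval -1.10 to -0.05, limma adjusted p = 0.371) became -0.33 without that library (adjusted p = 0.0770), and it was -0.38 with the GC trend removed and -0.21 with both.

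Mrpl32 (ENSMUSG00000015672.4, chromosome 13, 14608184 to 14613165, minus strand), the counterpart of bacterial L32 and the gene with the NRF1 letters above, had 1674, 1474 and 1699 normalised reads in siCTL and 1751, 1669 and 2028 in siTET3. The groups overlapped. The log2 change was 0.17 (limma adjusted p = 0.436) and 0.10 without siCTL replicate 2 (adjusted p = 0.535). It is shown for its sequence and was chosen after its values were seen.

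Of the other large subunit genes with a bacterial counterpart, Mrpl1 had the most positive log2 change, 0.82 (95% interval -0.37 to 1.998, limma adjusted p = 0.409). Mrpl1 is the counterpart of the protein that forms the L1 stalk, at which spent tRNA leaves. It had 1215, 313 and 1036 normalised reads in siCTL and 1232, 1256 and 1392 in siTET3, so the low value of siCTL replicate 2 set most of the difference, and the log2 change without it was 0.20 (adjusted p = 0.258). Mrpl36, whose bacterial counterpart is a small zinc-binding protein, had 1831, 735 and 1730 against 1942, 1886 and 1785 normalised reads, a log2 change of 0.50 that was 0.07 without siCTL replicate 2. Mrpl2, which lies at the peptidyl transferase centre in bacteria, had 2591, 3345 and 2469 against 2326, 2212 and 2146, without overlap, a log2 change of -0.32 with all libraries and -0.18 without siCTL replicate 2 (limma adjusted p = 0.374 and 0.154). Mrpl55 had a log2 change of -0.44 and -0.21 in the same 2 fits, and neither passed (adjusted p = 0.378 and 0.227).

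Some large subunit proteins have a role beyond the ribosome or an unusual one in it. Mrpl12, the counterpart of the bacterial stalk protein that recruits translation factors, is also known in human cells to bind the mitochondrial RNA polymerase. It had 5372, 10607 and 6088 normalised reads in siCTL and 5645, 5201 and 5225 in siTET3. The groups overlapped and only siCTL replicate 2 lay far from the rest, with a log2 change of -0.39 that was -0.10 without that library (limma adjusted p = 0.423 and 0.470). Mrpl58, a peptidyl-tRNA hydrolase built into the subunit, had 1016, 1666 and 1103 against 956, 937 and 1018, a log2 change of -0.34 and, without siCTL replicate 2, -0.13 (adjusted p = 0.397 and 0.362). Mrpl11, which forms the base of the stalk, was among the steadiest, with 1992, 2066 and 1958 against 1970, 1958 and 1936 and a log2 change of -0.04 (95% interval -0.22 to 0.15), and of -0.01 without siCTL replicate 2. Mrpl48, the lowest member per kilobase, had 1617, 1900 and 1704 against 1627, 1566 and 1613 normalised reads and a log2 change of -0.12 (adjusted p = 0.488), and of -0.05 without siCTL replicate 2.

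**Figure D2:**
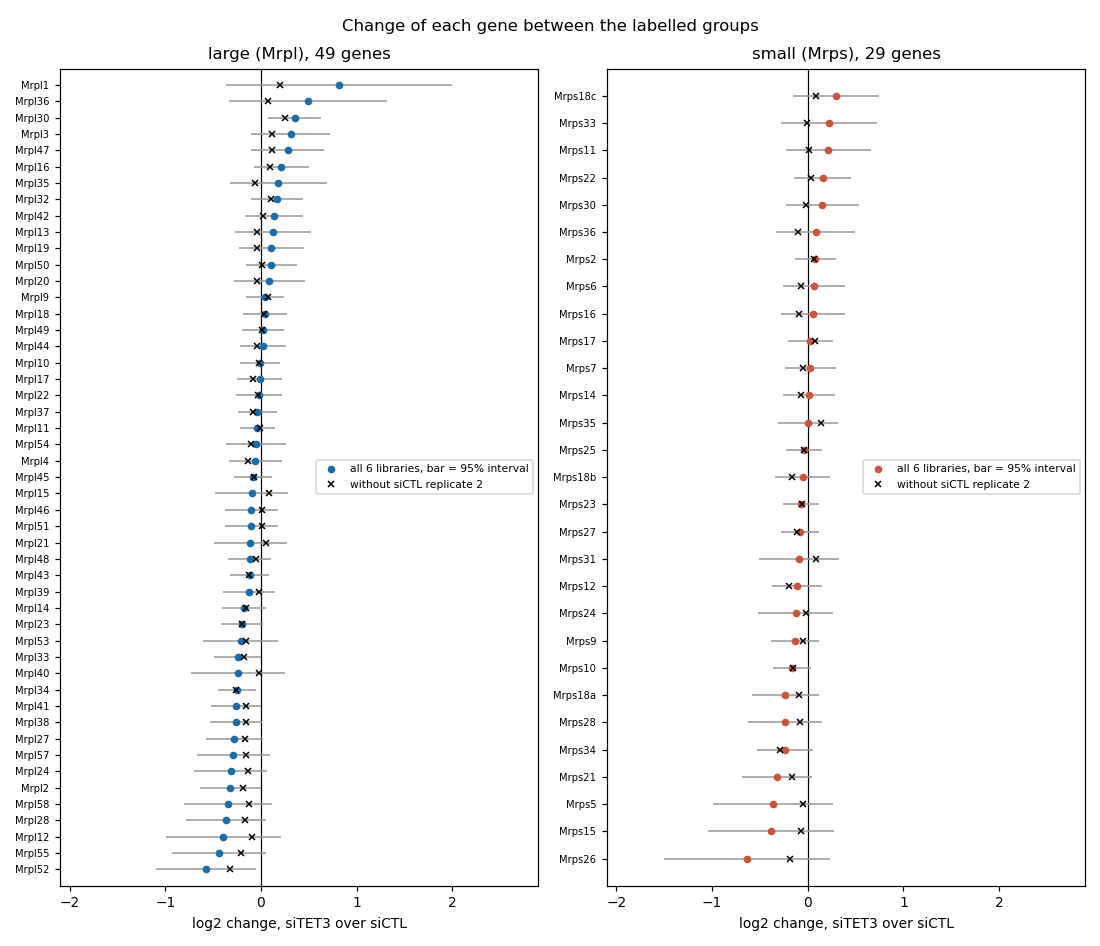
Log2 change of siTET3 over siCTL for each Mrpl (left) and Mrps (right) gene, as dots with 95% intervals from limma over all 6 libraries and as crosses without siCTL replicate 2. The dots run from -0.64 (Mrps26) to 0.82 (Mrpl1), and the crosses run over a narrower range, from -0.33 (Mrpl52) to 0.25 (Mrpl30).

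Among the small subunit genes, 16 of 29 (55.2%) had a negative and 13 a positive log2 change, against 50.7% negative over all genes tested. The Mrps median was -0.05, against -0.0049 over all genes. Without siCTL replicate 2 the median was -0.06, against 0.008 over all genes, and 22 (75.9%) were negative, against 48.2% of all genes. Scaling to library totals alone turned the Mrps median with all libraries to 0.03 and moved that of all genes to 0.08. In both scalings the Mrps median lay below that of all genes, a difference that was not tested. None of the 29 reached an unadjusted p under 0.05 in limma or edgeR, where 13.2% and 13.3% of all genes did. In DESeq2 1 did (3.45% against 17.4% of all genes), and without siCTL replicate 2 limma gave 4 (13.8% against 22.6%).

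Mrps10, Mrps21, Mrps34 and Mrps26 were the Mrps genes whose groups did not overlap, all lower in the libraries labelled siTET3. Mrps10 (chromosome 17, 47368887 to 47381417, plus strand), the counterpart of a protein of the head of the bacterial small subunit, had 3126, 3051 and 2820 normalised reads in siCTL and 2678, 2738 and 2597 in siTET3, with siCTL replicate 2 inside the range of the other controls. Its log2 change of -0.17 (95% interval -0.37 to 0.04) did not pass (limma adjusted p = 0.384, and 0.227 without siCTL replicate 2). Mrps21 had 1493, 2220 and 1711 against 1421, 1430 and 1435, a log2 change of -0.32 (adjusted p = 0.380), and of -0.16 without siCTL replicate 2 (adjusted p = 0.255).

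Mrps34, a mitochondria-specific protein of the small subunit, had 3210, 2578 and 2531 against 2506, 2248 and 2251, with siCTL replicate 1 the highest. The log2 change was -0.24 (adjusted p = 0.383) and -0.29 without siCTL replicate 2 (adjusted p = 0.188). Its exons share 63.4% of their bases with Mapk8ip3 on the opposite strand and 37.0% with Nme3 on the same strand. No source says that reads were counted by strand, so reads of these genes cannot be told apart.

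Mrps26 (ENSMUSG00000037740.8, chromosome 2, 130563742 to 130568695, plus strand) had the most negative log2 change of all 78 genes, -0.64 (95% interval -1.499 to 0.23, limma adjusted p = 0.399). Its normalised reads were 4157, 10295 and 3994 in siCTL and 3755, 3486 and 3479 in siTET3. The groups did not overlap, yet siCTL replicate 2 was far above both other controls, and without it the log2 change was -0.19 (adjusted p = 0.134). Mrps15 showed the same shape, with 2177, 4609 and 2633 against 2133, 2152 and 2583, overlapping groups and a log2 change of -0.39 that was -0.07 without siCTL replicate 2.

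On the positive side, Mrps18c had 1838, 1201 and 1897 normalised reads in siCTL and 1927, 1892 and 2113 in siTET3, a log2 change of 0.29 and, without siCTL replicate 2, 0.08 (limma adjusted p = 0.423 and 0.518). Mrps33 had 1457, 877 and 1373 against 1580, 1339 and 1319, and 0.22 became -0.0072. Mrps22 had 1238, 930 and 1172 against 1236, 1222 and 1234, and 0.16 became 0.03. In each of these 3 genes siCTL replicate 2 was the lowest library and the siTET3 values lay within or close to the other controls.

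Mrps18c is 1 of 3 paralogues that occupy different places in the particle, Mrps18b and Mrps18c in the small and Mrps18a in the large subunit. Mrps18a had 2582, 3773 and 3091 normalised reads against 2534, 2776 and 2637, and its log2 change was -0.23 (adjusted p = 0.421), and -0.09 without siCTL replicate 2. Mrps18b had 1249, 989 and 1252 against 1110, 1155 and 1080, with a log2 change of -0.05, and of -0.17 without siCTL replicate 2 (adjusted p = 0.204). Per kilobase of exon, Mrps18c was at 1683 normalised reads, Mrps18a at 786 and Mrps18b at 545. With all libraries their changes differed in sign, and without siCTL replicate 2 they lay between -0.17 and 0.08.

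A few S symbols need care as names. Mrps30 is a large subunit protein in the structure of the ribosome, and it had 2287, 1512 and 1995 normalised reads against 2071, 2060 and 2210 (log2 change 0.15, adjusted p = 0.580, and -0.02 without siCTL replicate 2). Mrps36 is known as a component of the 2-oxoglutarate dehydrogenase complex, and had 1160, 738 and 1026 against 998, 1018 and 1025 (log2 change 0.08, adjusted p = 0.778, and -0.11 without siCTL replicate 2). The groups overlapped for both genes. Mrps6, which shares 10.4% of its exon bases with the transporter gene Slc5a3 on the same strand, had 1200, 863 and 1078 against 1115, 1093 and 1045 (log2 change 0.06, adjusted p = 0.783, and -0.07 without siCTL replicate 2). The sign of these 3 changes thus turned with that library. Mrps12, whose bacterial counterpart helps set decoding accuracy, was the lowest member in normalised reads, with 524, 432 and 508 against 446, 457 and 447 (log2 change -0.11, and -0.20 without siCTL replicate 2, adjusted p = 0.550 and 0.216). Mrps35, the lowest Mrps gene per kilobase, had 1752, 2374 and 1842 against 1916, 2006 and 2015, with a log2 change of 0.0050, and of 0.14 without siCTL replicate 2.

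Grouped by role, the 30 large subunit proteins with a bacterial counterpart had a median log2 change of -0.02 and the 21 mitochondria-specific ones, Mrps18a and Mrps30 among them, -0.12. The 16 small subunit proteins with a bacterial counterpart had a median of -0.05 and the 10 mitochondria-specific ones -0.06. Mrps36 was placed in none of these lists. Without siCTL replicate 2 the same medians were -0.04, -0.08, -0.06 and -0.05. Median levels per kilobase were 972 and 913 in the large and 746 and 670 in the small subunit. No difference between the role groups was tested.

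Counting genes whose groups do not overlap, 17 members were lower in every siTET3 library than in every siCTL library, 13 Mrpl and 4 Mrps, which is 21.8% against 15.5% of all genes tested. Another 5 were higher (6.41% against 16.1%), namely Mrpl1, Mrpl3, Mrpl16, Mrpl30 and Mrpl47, all with a bacterial counterpart. The 17 lower genes had a median GC content of 52.7% and a median level of 1812 per kilobase, and the 5 higher ones 45.3% and 415. Without siCTL replicate 2, where 2 controls are set against 3 libraries, 24 were lower and 6 higher, 30.8% and 7.69% of the members against 20.6% and 21.2% of all genes. This count without siCTL replicate 2 was added after the values had been seen. At an unadjusted p under 0.05, the fit without that library gave 13 members, which is 16.7% against 22.6% of all genes. Of these members 12 were lower, and of the 2616 such genes among all tested 1285 were lower. Again 0 of 78 were called, against 2.76% of all genes.

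The measurements bound the size of change that these libraries allow. The 95% interval of 53 of the 78 genes (67.9%) lay within 1.5-fold in either direction, against 48.7% of all genes tested. Without siCTL replicate 2 this held for 78 of 78, against 79.2% of all genes, and an interval within 1.25-fold held for 55 (70.5%, against 43.2%, and with all libraries 19 of 78 against 13.3%). With the GC trend described below also removed, the counts were 78 (82% of all genes) and 64 (56.2%). The members also had a higher median level than all genes tested, 2105 against 1328 normalised reads.

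The control that stood apart was often the extreme library for the members. It was the outermost of the 6 libraries in 61 of 78 genes (78.2%, and 78.2% of all genes tested), as the highest in 32 and the lowest in 29. Its log2 deviation from the other controls ran from -1.84 (Mrpl1) to 1.34 (Mrps26), and across the 78 genes it correlated with the log2 change at r = -0.90, against -0.66 over all genes tested. The coefficients are descriptions, because the library is part of the control mean.

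**Figure D3:**
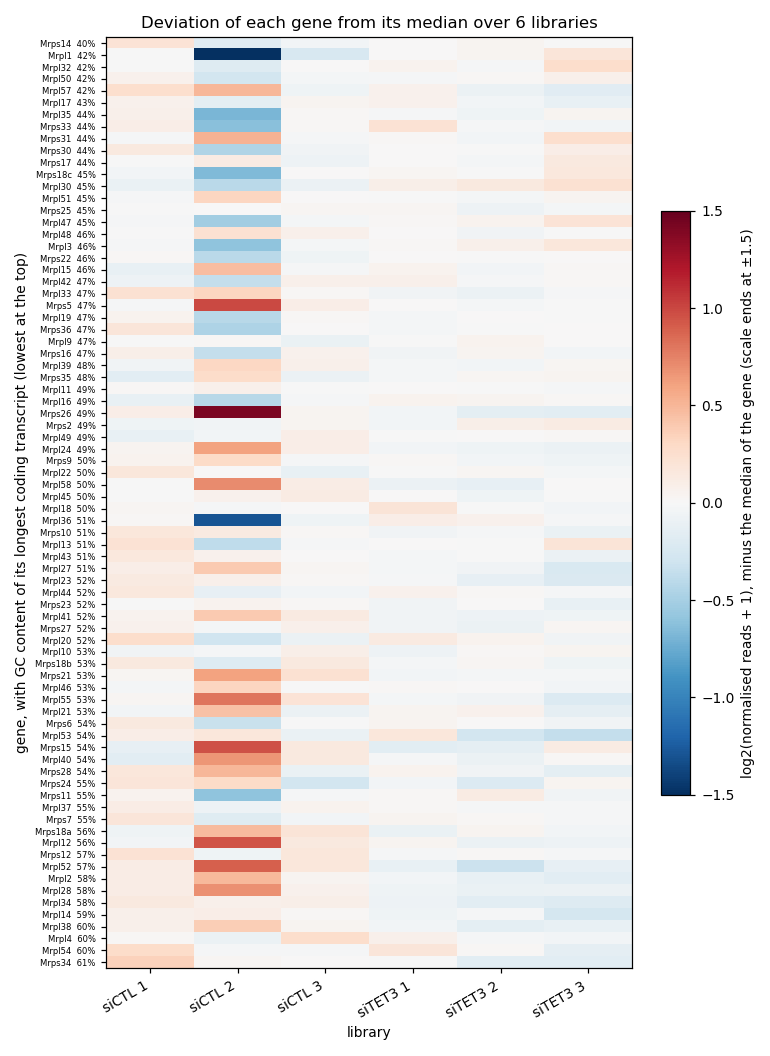
Log2 deviation of each of the 78 genes (rows, ordered by GC content with the lowest at the top) from its median over the 6 libraries (columns), in colour from blue for lower to red for higher. The column of siCTL replicate 2 holds the strong colours, from Mrpl1 in blue to Mrps26 in red, and the other 5 columns are pale.

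Base content moved with the changes as well. Across the 78 genes, the GC content of the transcript and the log2 change had a correlation of -0.48, and of -0.58 without siCTL replicate 2, against -0.46 and -0.31 over all genes with a GC value. Spearman's rho was -0.51 and -0.56 for the members, against -0.57 and -0.49 over all genes. These genes share their libraries, and the coefficients are descriptions. With all genes split into 3 equal classes by GC content, the median log2 change was 0.11 in the 23 members of the lowest class (up to 47.0%), -0.06 in the 34 of the middle class and -0.23 in the 21 of the highest (above 53.5%). The same medians over all genes tested were 0.23, -0.02 and -0.18. With a smooth trend on GC content removed from each library and siCTL replicate 2 left out, the members' medians were -0.07, -0.06 and -0.01. With the trend removed and all libraries kept, 0 of 78 were called (0.492% of all genes). With siCTL replicate 2 also left out, 33 of 49 Mrpl (67.3%) and 24 of 29 Mrps genes (82.8%) were negative, against 49.2% of all genes. The Mrpl and Mrps medians were -0.04 and -0.06, against 0.0025 over all genes. In that fit 0 of 78 were called (3.32% of all genes). There 12 members had an unadjusted p under 0.05 (18.8% of all genes), and the smallest adjusted p was that of Mrps14, named after its values were seen, with a log2 change of -0.23 (adjusted p = 0.0720).

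**Figure D4:**
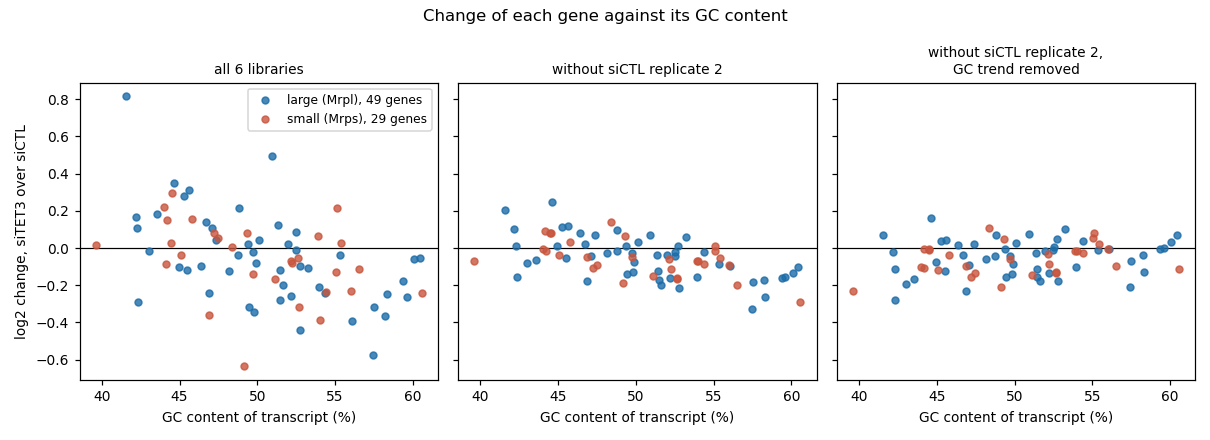
Log2 change of each Mrpl (blue) and Mrps (red) gene against the GC content of its transcript in percent, with all libraries, without siCTL replicate 2, and without it after removal of the GC trend. The points slope down in the first and middle panels (r = -0.48 and -0.58), and in the last they lie between -0.28 and 0.16 without that slope.

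The other genes of mitochondrial translation and its control were read from lists of 78 genes, of which 76 could be tested. Limma and edgeR each called 0 of the 76 with all libraries, against 0.354% and 0.345% of all genes. At an unadjusted p under 0.05 they gave 8 and 7, or 10.5% and 9.21%, against 13.2% and 13.3% of all genes. Mterf2 and Ppargc1a, the latter a coactivator of mitochondrial gene expression, were below the level for testing. Of 5 ribosomal proteins with other symbols, 4 (80%, against 50.7% of all genes) had a negative log2 change (median -0.24, and -0.11 without siCTL replicate 2). Aurkaip1, which fits into the small subunit, had 3140, 4892 and 3160 normalised reads in siCTL and 2632, 2715 and 2628 in siTET3, a log2 change of -0.46 and, without siCTL replicate 2, -0.24 (limma adjusted p = 0.374 and 0.0635). Ptcd3, an RNA-binding protein of the small subunit, had 2141, 1714 and 2168 against 2584, 2414 and 2901, a log2 change of 0.40 and, without siCTL replicate 2, 0.29 (adjusted p = 0.332 and 0.121). For both genes the groups did not overlap.

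The 26 assembly and rRNA modification genes had a median log2 change of -0.06 with 17 negative (65.4%, against 50.7% of all genes). Mpv17l2, an inner membrane protein needed for assembly, had a log2 change of -0.55 and Rpusd3, a pseudouridine synthase, one of -0.38 (adjusted p = 0.374 and 0.349), and without siCTL replicate 2 these were -0.29 and -0.27. The 15 translation factors had a median of 0.10 with 9 positive, and 40% were negative against 50.7% of all genes. Among them Lrpprc, which binds mitochondrial mRNAs, and Mtif2, the initiation factor, each had 0.14 (adjusted p = 0.417 and 0.420), and 0.10 without siCTL replicate 2. The 8 tested genes of mitochondrial transcription and DNA replication had a median of 0.12, with 0.22 for the elongation factor Tefm and -0.19 for Polrmt, the RNA polymerase (adjusted p = 0.394 and 0.399), which were 0.12 and -0.11 without siCTL replicate 2. The 9 tested regulators of nuclear mitochondrial genes had a median of 0.04, with 0.17 for Creb1 and -0.28 for Esrra (adjusted p = 0.400 and 0.378), which were 0.10 and -0.16 without it. In none of these lists did a gene pass, and without siCTL replicate 2 their medians were -0.06, 0.06, -0.05 and 0.03.

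The mRNAs that the mitochondrial ribosome translates all had positive log2 changes with all libraries. Their median over 13 genes was 1.10, and 10 of the 13 (76.9%) were higher in every siTET3 library than in every siCTL library, against 16.1% of all genes. Limma called none with all libraries (0.354% of all genes), and 4 (30.8%) had an unadjusted p under 0.05, against 13.2% of all genes. The abundant mt-Co1, which encodes a core subunit of cytochrome c oxidase, had 649659, 124781 and 684145 normalised reads in siCTL and 716669, 678864 and 742214 in siTET3. Only siCTL replicate 2 was far below the rest, and the log2 change of 0.90 was 0.10 without it. These transcripts are low in GC content, 31.9% to 41.1%, and their median log2 deviation in siCTL replicate 2 from the other controls was -2.06. Without that library their median was 0.53, and 0.28 with the GC trend also removed. In the last of these fits 3 of the 13 were negative, mt-Co1 (-0.07), mt-Nd4 (-0.06) and mt-Nd5 (-0.01). The largest change with all libraries, 3.05 for mt-Nd3, came from low values, 0 to 25.5 normalised reads.

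For mt-Nd2 and mt-Nd6, which encode subunits of respiratory complex I, the call depended on the fit. The normalised reads of mt-Nd2 were 32921, 10475 and 32377 in siCTL and 52756, 47400 and 43864 in siTET3, without overlap. Limma called it only without siCTL replicate 2 (log2 change 0.55, adjusted p = 0.0282), not with all libraries (1.10, adjusted p = 0.374) and not with the GC trend also removed (0.33, adjusted p = 0.183). For mt-Nd6 they were 3854, 3088 and 4257 against 6927, 5832 and 4923, also without overlap. DESeq2 called it (adjusted p = 0.0287), as did the authors' deposited table (adjusted p = 0.0325), and limma did not (log2 change 0.66, adjusted p = 0.282). Nor did limma call it without siCTL replicate 2 (log2 change 0.53, adjusted p = 0.0937) or with the GC trend also removed (0.28, adjusted p = 0.445). The mt-Nd6 gene lies on the opposite strand to the other mitochondrial mRNAs, and without strand in the counting its reads cannot be told apart from antisense RNA.

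**Figure D5:**
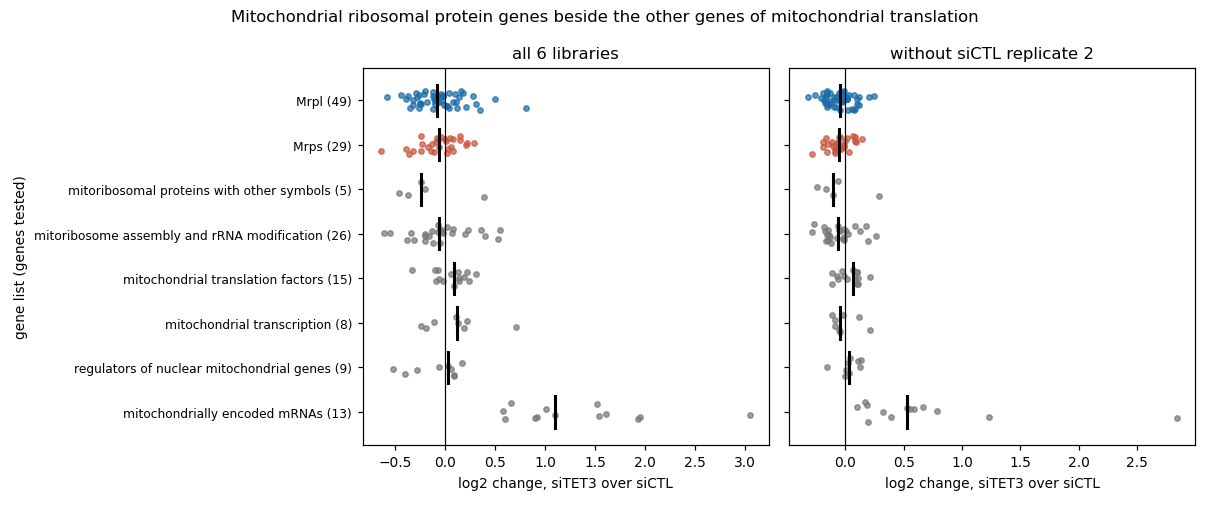
Log2 change of siTET3 over siCTL for each gene (points) of the Mrpl and Mrps genes and of 6 other lists of mitochondrial translation, with the median of each list as a bar, for all 6 libraries (left) and without siCTL replicate 2 (right). The Mrpl and Mrps points lie around 0 in both panels (medians -0.08 and -0.05, then -0.04 and -0.06), and the 13 mitochondrially encoded mRNAs lie above 0 (medians 1.10 and 0.53).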

How the data were processed

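The authors deposited a signal for each gene in each library, which is a gene count divided by 1 size factor. This was read from the deposited values, of which 100% were whole multiples of 1 read within 0.001 reads, with 1 read worth 0.634 to 1.27 units. The authors also deposited log2 fold changes (siCTL over siTET3, turned here) and p-values. Per the submitters' processing notes the build was GRCm38 (mm10), and no aligner or counter is given in the sources used here.

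The design named an edgeR test for raw counts and limma for normalised values, and limma was used. Limma 3.58.1 (R 4.3.3) with a variance trend was fitted to log2(value + 1), group as the only term, for genes with a mean of at least 10, and tested on simulated data. The simulated libraries had no GC trend and none stood apart, so they do not show how the test behaves with siCTL replicate 2. The edgeR 4.0.16 fit on recovered reads called 40 genes, and DESeq2 1.42.0 was another alternative. Other settings were pseudocounts, level filters, scalings, removal of a lowess trend on GC content, a replicate block and each library left out. Coordinates, exons and GC content come from GENCODE M21, which holds all 78 genes, 69 with the same version.

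Genes were named by rule: those called, the smallest p, the largest changes and the extreme levels in each subunit, and members with a known role. Members and lists were chosen with earlier results of these data known.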

Additional observations from a re-analysis of the deposited data

How the results depend on the processing

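In each of the 18 alternatives, 0 of 78 members were called, and the smallest adjusted p of any member in any of them was 0.0720. Of the 26 members named by rule, 15 kept their sign in every alternative and 11 turned in at least 1, in 32 of 468 values, none of them called. The Mrpl median, -0.08 with all libraries, was 0.0029 with scaling to library totals, -0.042 with the GC trend removed, -0.036 with that and siCTL replicate 2 left out, and between -0.10 and -0.043 with 1 library left out. The Mrps median lay between -0.06 and -0.03 with 1 library left out. Of the other genes of mitochondrial translation, 0 were called higher with all libraries, 1 in DESeq2 (mt-Nd6) and 1 without siCTL replicate 2 (mt-Nd2). Over all genes, calls numbered 41 in limma, 435 in DESeq2, 320 without siCTL replicate 2 and 385 with the GC trend also removed. The causes were not tested.

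The labels do not say whether replicate numbers pair the samples. Deviations of same-numbered libraries correlated at 0.03, -0.06 and -0.10, and those of other pairs between -0.08 and 0.11. These deviations are from means of 3 libraries, 1 of them apart in siCTL, so they cannot decide whether samples were paired. With the replicate number as a block, 0 members and 1 gene of all were called and the Mrpl and Mrps medians were -0.08 and -0.05, and with the block and the GC trend removed the Mrpl median was -0.042. The lowest member had a mean of 469 normalised reads, and the effect of depth was not tested. With 3 libraries a group, 1 of them apart, the 95% interval reached past 1.5-fold for the members outside the 53 named above.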

Other observations

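Many of the genes share their start region with another gene. A protein-coding gene on the opposite strand started within 1000 bases, upstream or downstream, for 33 of the 78 members (42.3%). The same held for 17.6% of 11551 annotated genes among those tested. By symbol these were 24 of 49 Mrpl (49.0%) and 9 of 29 Mrps genes (31.0%). Pairs of genes that overlap at their starts are counted too, and the shares are given as a description. Mrpl46 and Mrps11, which encode proteins of different subunits, start 412 bases apart and their annotated exons share 173 bases. Their log2 changes were -0.10 and 0.21, and neither passed in limma (adjusted p = 0.617 and 0.510). They were 0.01 and 0.0089 without siCTL replicate 2. Mrps12 starts 172 bases from Sars2, the mitochondrial seryl-tRNA synthetase, Mrpl36 starts 29 bases from Ndufs6, a subunit of complex I, and Mrpl32 starts 75 bases from Psma2, a proteasome subunit. Among the pairs given here, the 2 genes did not always share a sign, and signs were not counted over all 33 members. Mrpl36 and Ndufs6 had log2 changes of 0.50 and -0.45, Mrpl30 and Mitd1 of 0.35 and 0.58, and Mrpl2 and Klc4 of -0.32 and -0.58, none past the threshold (limma adjusted p of the partners 0.418, 0.203 and 0.378). In the fit without siCTL replicate 2, looked up after the values had been seen, the members had 0.07, 0.25 and -0.18 and the partners -0.11, 0.46 and -0.26. There Mitd1 passed (adjusted p = 0.0392), where 2.76% of all genes were called, and Ndufs6 and Klc4 did not (adjusted p = 0.332 and 0.0988).

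The 78 genes were spread over 17 chromosomes, with 11 on chromosome 11, 8 on chromosome 17 and 7 on chromosome 6. Large stretches shared with other genes touch a few of them. Mrps25 shares 69.8% of its exon bases with Nr2c2 on the opposite strand, Mrpl53 shares 88.0% with Gm42688 on the same strand, Mrpl19 shares 36.0% with Gcfc2 and Mrpl43 shares 33.4% with Twnk, the mitochondrial helicase.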
